A study of Mus musculus with 12 samples.

Results

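The 8 genes described here encode the chains of the cytokines interleukin-12 (IL-12), IL-23 and IL-27, the cytokine IL-10, and the chains of the IL-10 receptor. They were chosen by name (Il12a, Il12b, Il23a, Il27, Ebi3, Il10, Il10ra and Il10rb), as every non-control probe whose gene name is one of them, whatever its signal. This gave 8 probes of 55681, 1 a gene, and 8 genes of the 28261 kept after a filter on dim probes. Their levels were measured on single-colour Agilent arrays, 12 in number, with 4 groups of 3.

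The op/op group held cells sorted magnetically for CD11b and CD11c, surface proteins of myeloid cells, from kidneys of mice of strain B6C3Fe a/a-Csf1op/J that were homozygous for the op mutation. The WT group held cells sorted in the same way from wild-type mice of that strain label. All kidney donors, WT included, had received 80 mg/kg glyoxylate, a precursor of oxalate used to form kidney stones in mice, for 6 days. The op allele is a mutation of Csf1, which encodes macrophage colony-stimulating factor (M-CSF), and every cell type that depends on this factor is affected. The M1 and M2 groups were macrophages grown from bone marrow and stimulated with LPS and GM-CSF (M1) or with IL-4 and M-CSF (M2), and the study used them as controls. The labels give the marrow the same strain, with no genotype of its donors, and they state neither the age of the animals nor whether replicates came from separate animals or cultures. The p-values therefore measure the spread between these arrays, which may be technical, and the number of arrays limits the precision.

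IL-12 and IL-23 are made of paired chains and share the chain encoded by Il12b, which joins the Il12a product in IL-12 and the Il23a product in IL-23. IL-27 is made of the products of Il27 and Ebi3. Macrophages and dendritic cells secrete IL-12 and IL-23 after contact with microbial products, and these cytokines drive type 1 and type 17 lymphocyte responses, whereas IL-10, acting through receptor chains encoded by Il10ra and Il10rb, restrains macrophage activation. In the kidney, resident macrophages and dendritic cells are known sources of these cytokines.

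Each probe is a 60-base oligonucleotide, and it is the only view of its gene on this array. The first 30 bases of each are shown because 3 of the probes stand apart, Il12a in its sequence and Il12b and Il10 in their number of copies on the array. Positions are those of the files, in build mm9. Capitals mark every ATTTA within the bases shown, the core of the AU-rich elements that shorten the life of many cytokine mRNAs. The exon or UTR under each probe was not analysed here.
Il12a, chr3:68502346-68502405, plus strand: aagtacatgagcctATTTAtATTTATTTAt
Il12b, chr11:44227121-44227180, plus strand: gctcttcaatcagggcttcgtaggtacatt
Il23a, chr10:127733766-127733825, minus strand: tgataagactaatctatcagcccagacatc
Il27, chr7:133736137-133736196, minus strand: aatctcgattgccaggagtgaacctggacc
Ebi3, chr17:56096309-56096368, plus strand: agcactggataattcacttgacttcttcag
Il10, chr1:132920943-132921002, plus strand: ggaaaacctcgtttgtacctctctccgaaa
Il10ra, chr9:45062237-45062296, minus strand: gtcatgaccctaatctggtacgagagctcc
Il10rb, chr16:91425744-91425803, plus strand: gtaatttgagccctttgtgctcactaaaac

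The Il12a probe was the least usual of the 8. It held 4 copies of ATTTA over its 60 bases, a number reached by 7 probes of the array in all, and 16.7% G and C. A G and C share that low or lower was found in 0.09% of all probes, whose median was 43.3%, and 7.7% of all probes held an ATTTA. The other 7 probes held between 35% and 55.0% G and C. Of these, the Il10 and Il10rb probes each held 1 ATTTA, not within the 30 bases shown, and the rest held none. The Il12b and Il10 probes were each printed as 10 spots, and the other 6 genes had 1 spot.

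Levels below are log2 intensities relative to the 75th percentile of the array, so that a level of 0 is that percentile. They can be compared between arrays for 1 gene but not between genes. A probe was taken as measured on an array where most of its spots were well above background as Feature Extraction marks them, and as not well above background otherwise. Differences were tested with limma, fitted to all 12 arrays, with Benjamini-Hochberg adjustment over all genes tested in a comparison. A gene was tested where all arrays of at least 1 of the groups compared were well above background, and called at an adjusted p under 0.05.

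Some facts of the whole series bear on every value. Probes well above background made up 63.1% to 68.8% of op/op arrays and 76.1% to 79.3% of WT arrays, and 72.6% to 75.1% of M1 arrays and 64.4% to 65.1% of M2 arrays. WT replicate 1 was alone on its slide, the other 5 kidney arrays shared a slide and the 6 marrow arrays shared another, so tissue and slide cannot be told apart. The WT and M1 arrays lay in the upper row of their slides and the op/op and M2 arrays in the lower row, so row and group cannot be told apart either. The residual SD, by its median over genes, was 0.367 on kidney arrays and 0.161 on marrow arrays, and the fit pools them. In bulk samples such as these, fewer cells of a type and less RNA per cell cannot be told apart.

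The sorted kidney cells were checked against marker lists, given as the sum of linear levels over a list, with 1 standing for the 75th percentile. Among all genes tested in op/op against WT, 30.9% were called higher and 28.5% lower, so a called marker is common. The sum over 11 macrophage and monocyte markers was 77.8 to 83.7 on op/op arrays and 121 to 236 on WT arrays. Of these markers, 8 were called lower in op/op and none higher, while Csf1r, the M-CSF receptor, differed by 0.08 ± 0.14 (SE, adjusted p = 0.629, limma) by the brightest of its 3 probes, which ran down to -1.80. The sum over 10 dendritic cell markers was 17.1 to 22.9 on op/op arrays and 34.9 to 39.9 on WT arrays, with 4 called lower. Every marker of both lists was well above background on at least 1 array of each kidney group.

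Markers of other cell types moved as well, and the shares of all genes given above bear on these counts too. The sum over 8 T cell markers was 60.6 to 82.9 on op/op arrays and 15.9 to 45.4 on WT arrays, and 5 of the 6 tested were called higher. Cd3g was at background in both groups. On the arrays of cultured marrow macrophages this sum was 13.9 to 16.5 (M1) and 13.7 to 17 (M2). The sum over 8 B cell markers was 20.9 to 26.4 on op/op arrays and 6.37 to 19.3 on WT arrays, with 5 called higher and 1 lower. The sum over 8 proximal tubule markers was 13.4 to 27.3 on op/op arrays and 61.8 to 134 on WT arrays, with 7 called lower, and Slc13a1 was at background on every op/op array. Of the 7 tested markers of the distal nephron and collecting duct, 4 were called higher and 1 lower (median 0.98). Their sum was not higher in op/op, at 22.6 to 72.2 on op/op arrays and 43.9 to 105 on WT arrays. Of 7 tested neutrophil markers 4 were called higher, of 4 NK cell markers 2, of 4 mast cell markers 1 and of 6 endothelial markers 1, and none lower. The part of these cells in the differences given below was not tested.

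Between the genotypes, the IL-27 chains moved in opposite directions and both IL-10 receptor chains were lower in op/op. Of the 5 genes tested, 4 were called, 1 higher (Il27) and 3 lower (Ebi3, Il10ra and Il10rb). Among all 27062 genes tested the share called was 59.4%, with 30.9% higher and 28.5% lower, so a call is common in this comparison, and the median difference of all genes was 0.16. Il10 was tested and not called, and Il12a, Il12b and Il23a were too dim to be tested.

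**Figure D1:**
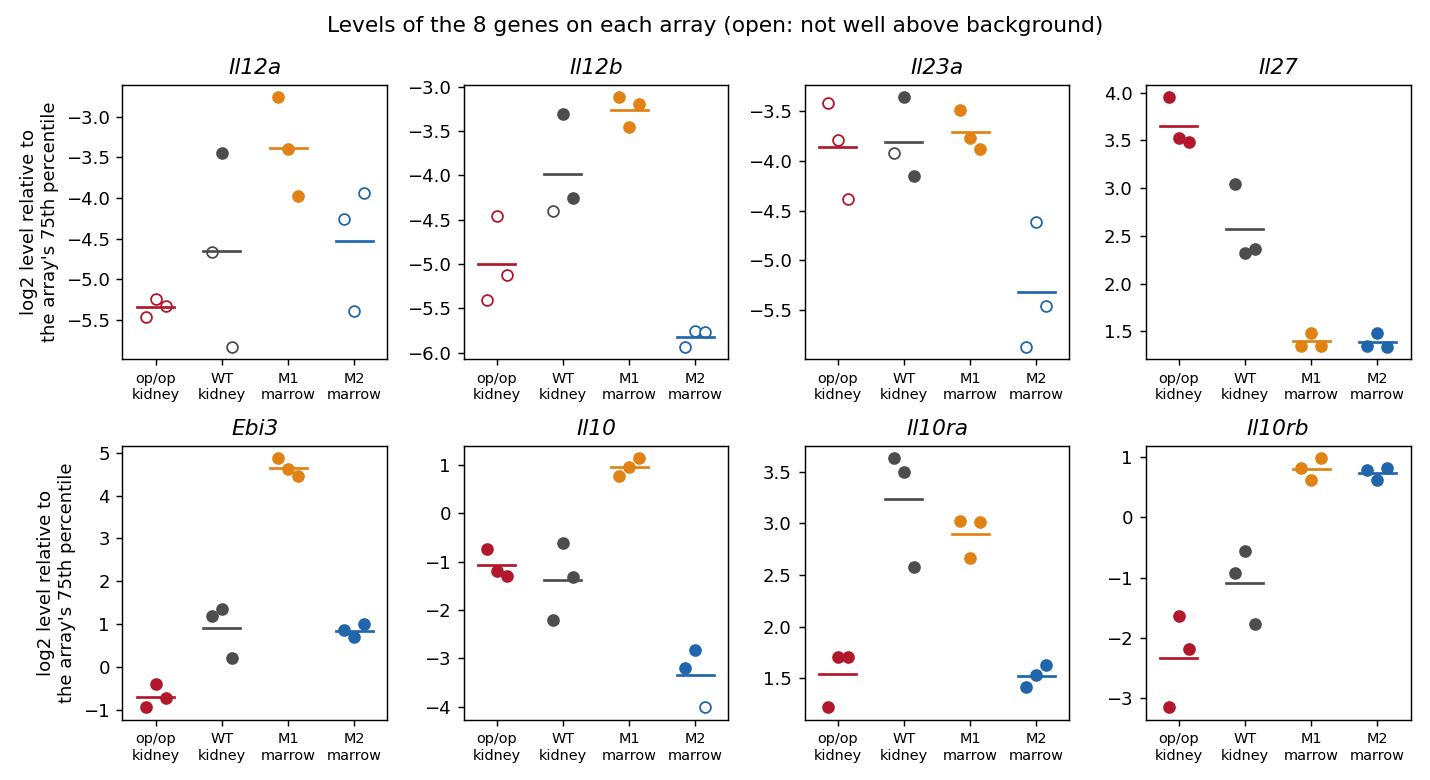
Log2 level of each of the 8 genes relative to the array's 75th percentile, by group (op/op kidney, WT kidney, M1 marrow, M2 marrow), with 1 point an array and a bar at the group mean; open points were not well above background, and each panel has its own axis. Il27 was highest on the op/op arrays, Ebi3 and Il10 on the M1 arrays, and Il12a, Il12b and Il23a had open points on every op/op and M2 array.

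Il12b encodes the chain shared by IL-12 and IL-23, and it was well above background on 5 of the 12 arrays (41.7%). By group these were 0 of 3 op/op arrays (0.0%), 2 of 3 WT arrays (66.7%), 3 of 3 M1 arrays (100%) and 0 of 3 M2 arrays (0.0%). Its 10 spots show how near the limit the kidney arrays were. On the op/op arrays the median spot intensity was 6.0, 11.5 and 8.1, with 0 of 8, 1 of 10 and 0 of 10 usable spots well above background. On the WT arrays it was 13.0, 45.2 and 22.7, with 1 of 10, 10 of 10 and 8 of 10. The single spot above background in op/op had an intensity of 31.9, above the brightest spot of WT replicate 4 (29.2) and just under the dimmest of WT replicate 2 (32.3).

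The marrow arrays separated cleanly by the same count. The median spot intensity was 56.3, 45.7 and 59.0 on the M1 arrays, where every usable spot (7, 8 and 10) was well above background. It was 8.3, 8.9 and 8.3 on the M2 arrays, where no spot of 8, 10 and 9 was. If 1 spot well above background were enough, Il12b would count as measured on 7 of the 12 arrays (58.3%), namely 1 of 3 op/op, 3 of 3 WT, 3 of 3 M1 and 0 of 3 M2 arrays. The spots of 1 array are repeats of 1 hybridization and not replicates of a group; their SD on the log2 scale ran from 0.07 to 0.75.

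**Figure D2:**
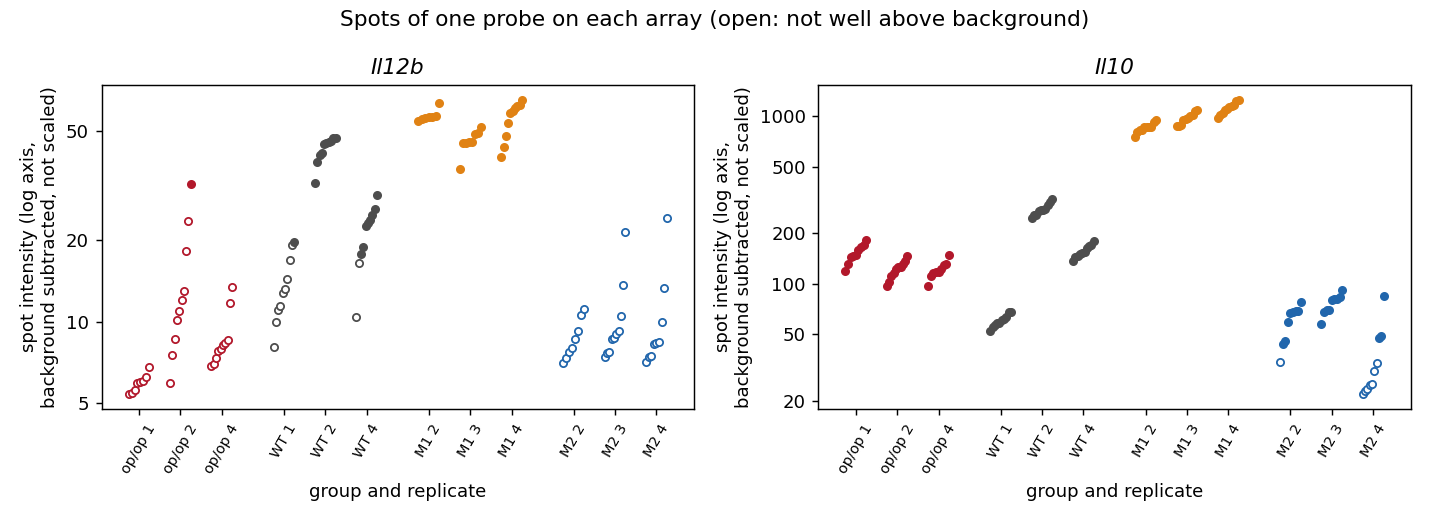
Intensity of every usable spot of the Il12b probe (left) and the Il10 probe (right) on each array, on log axes, background subtracted and not scaled between arrays, by group and replicate (op/op, WT, M1, M2); open points were not well above background. All Il12b spots of the M2 arrays and all but 1 of the op/op arrays were open, while Il10 spots were open on M2 replicates 2 and 4 only.

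The log2 level of Il12b was -5.41, -4.46 and -5.12 on the op/op arrays and -4.40, -3.31 and -4.25 on the WT arrays. The groups did not overlap, but the gap between op/op replicate 2 and WT replicate 1 was small, and neither of those arrays was well above background. The difference was -1.01 ± 0.30 (SE, 95% interval -1.66 to -0.36), and it was not tested by the rule on background. With 1 spot taken as enough it would be called (adjusted p = 0.0138, limma), and with normexp background correction it was 0.04.

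In the marrow, Il12b was called higher in M1. Its level was -3.12, -3.45 and -3.20 on the M1 arrays and -5.93, -5.75 and -5.77 on the M2 arrays, with no overlap. The difference was 2.56 ± 0.30 (SE, 95% interval 1.91 to 3.21, adjusted p = 8.67e-05, limma). Because no M2 array measured it, the fold is a lower bound, at least 1.55-fold, taken against the dimmest well-measured probe of each M2 array.

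Il12a encodes the chain specific to IL-12, and Il23a the chain specific to IL-23. Il12a stood at -5.47, -5.24 and -5.33 on op/op arrays and at -4.67, -3.45 and -5.83 on WT arrays. Only WT replicate 2 was well above background, and the groups overlapped, since WT replicate 4 was the lowest of the 6. In the marrow its level was -2.76, -3.40 and -3.98 on M1 arrays, all well above background, and -4.26, -5.39 and -3.94 on M2 arrays, none of them so. The M1 difference of 1.15 ± 0.54 (SE, 95% interval -0.03 to 2.33, adjusted p = 0.187, limma) was not called, and the highest M2 array overlapped the lowest M1 array.

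Il23a showed no gap between the kidney groups. Its level was -3.42, -3.79 and -4.38 on op/op arrays, none well above background, and -3.92, -3.36 and -4.15 on WT arrays, with replicates 2 and 4 well above it. The ranges overlapped almost fully, with a difference of -0.05 ± 0.34 (SE), not tested. In M1 it was called higher, at -3.49, -3.77 and -3.88 against -5.87, -4.62 and -5.46 in M2, with no overlap. That difference was 1.60 ± 0.34 (SE, adjusted p = 0.006, limma), at least 1.13-fold, and it was not called with normexp background correction (0.22, adjusted p = 0.365). With dim signals raised to the 10th percentile of those well above background, neither Il12b (0.11) nor Il23a (0.00) was called in M1 against M2.

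Il27 encodes the IL-27 chain that is made on activation of antigen-presenting cells, and it was the 1 gene of the 8 called higher in op/op. Its level was 3.95, 3.52 and 3.48 on op/op arrays and 3.04, 2.32 and 2.36 on WT arrays. Every op/op array lay above every WT array. The difference was 1.08 ± 0.21 (SE, 95% interval 0.62 to 1.54), or 2.11-fold, with an adjusted p of 0.00229 (limma). The marrow groups were alike in level, at 1.35, 1.48 and 1.35 on M1 arrays and 1.35, 1.48 and 1.34 on M2 arrays, with a difference of 0.00 ± 0.21 (SE, 95% interval -0.46 to 0.46, adjusted p = 0.996). LPS, a known inducer of Il27, was part of the M1 stimulus only, and why Il27 did not differ detectably between M1 and M2 was not tested.

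The gene whose level followed Il27 most closely over the 12 arrays was Olfr544, an olfactory receptor gene (Pearson r = 0.995), at 4.03 ± 0.24 in op/op, 2.96 ± 0.27 in WT, 1.99 ± 0.08 in M1 and 2.03 ± 0.03 in M2 (SD, n = 3 each). This led to a check, chosen after the values were seen, of the 509 olfactory receptor genes kept, a family whose main site is the nose. Their median difference was 0.78 in op/op against WT and 0.08 in M1 against M2, beside 1.08 and 0.00 for Il27. Their median r with Il27 was 0.85, and 1 of them was among the 100 genes most like Il27, where they are 1.80% of genes kept. What these probes share with Il27 was not tested.

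Ebi3 encodes the partner chain of IL-27, which also joins the Il12a product in IL-35. It stood at -0.93, -0.39 and -0.72 on op/op arrays and at 1.20, 1.35 and 0.22 on WT arrays. The groups did not overlap, and the difference was -1.60 ± 0.28 (SE, 95% interval -2.21 to -1.0, adjusted p = 0.00138, limma), 3.04-fold lower in op/op. In the marrow its level was 4.87, 4.61 and 4.45 on M1 arrays and 0.87, 0.70 and 1.0 on M2 arrays. All M1 arrays lay far above all M2 arrays, with a difference of 3.79 ± 0.28 (SE, adjusted p = 2.15e-06, limma), or 13.8-fold. The chains of IL-27 thus differed in opposite directions in op/op against WT, and in M1 against M2 Ebi3 was called and Il27 was not.

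Il10 did not differ detectably between the kidney groups. Its level was -0.74, -1.19 and -1.30 on op/op arrays and -2.21, -0.61 and -1.32 on WT arrays, all well above background. WT replicate 1 was the lowest and WT replicate 2 the highest of the 6, so the WT arrays spanned the whole op/op range. The difference was 0.31 ± 0.38 (SE, 95% interval -0.53 to 1.14, adjusted p = 0.495, limma), and without WT replicate 1 it was -0.11. The spots of a kidney array had an SD of 0.12 to 0.19 on the log2 scale, with median intensities of 148.7, 123.9 and 117.5 in op/op and 59.5, 275.5 and 154.0 in WT, not scaled between arrays.

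In the marrow, Il10 had the largest called difference of the 8 genes. It stood at 0.77, 0.95 and 1.14 on M1 arrays and at -3.20, -2.83 and -4.01 on M2 arrays, 2 of which were well above background. The groups were far apart, with a difference of 4.30 ± 0.38 (SE, 95% interval 3.46 to 5.14, adjusted p = 1.06e-05, limma), or 19.7-fold. The median spot intensity was 859.0, 974.0 and 1120.8 on M1 arrays and 67.1, 79.4 and 27.5 on M2 arrays, where 8 of 9, 9 of 9 and 3 of 10 spots were well above background. Ebi3 and Il10 were thus both called in M1 against M2, and of these Ebi3 alone was called in op/op against WT.

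Il10ra encodes the ligand-binding chain of the IL-10 receptor. Its level was 1.22, 1.71 and 1.71 on op/op arrays and 3.63, 3.50 and 2.58 on WT arrays. No op/op array reached a WT array, and the difference was -1.69 ± 0.26 (SE, 95% interval -2.27 to -1.12, adjusted p = 0.000959, limma), 3.23-fold lower in op/op. It was also called in M1, at 3.02, 2.66 and 3.01 against 1.42, 1.53 and 1.63 in M2, a difference of 1.37 ± 0.26 (SE, adjusted p = 0.00332, limma), or 2.59-fold higher. The group means formed a high pair, WT and M1, and a low pair, op/op and M2. The slide rows split the groups in the same way, so row and this pairing cannot be told apart.

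Il10rb encodes the receptor chain that IL-10 shares with other cytokines of its family. It stood at -3.15, -1.64 and -2.19 on op/op arrays and at -0.93, -0.56 and -1.77 on WT arrays. The groups overlapped, since op/op replicate 2 lay above WT replicate 4. The difference of -1.23 ± 0.37 (SE, adjusted p = 0.0143, limma), 2.35-fold lower in op/op, was called but rested on single arrays. Without WT replicate 2 it was -0.97 (adjusted p = 0.0588) and without op/op replicate 1 it was -0.82 (adjusted p = 0.058), and with normexp background correction it was -0.46 (adjusted p = 0.0679). In the marrow it was 0.81, 0.61 and 0.98 on M1 arrays and 0.78, 0.61 and 0.81 on M2 arrays, with a difference of 0.07 ± 0.37 (SE, 95% interval -0.73 to 0.87, adjusted p = 0.942).

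When slide was added to the fit, the comparison rested on the slide with op/op replicates 1, 2 and 4 and WT replicates 2 and 4. The op/op differences were then 1.31 for Il27, -1.46 for Ebi3, -1.49 for Il10ra and -1.16 for Il10rb, all called (adjusted p = 0.00109, 0.00484, 0.00292 and 0.0428, limma). That of Il10 was -0.11.

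**Figure D3:**
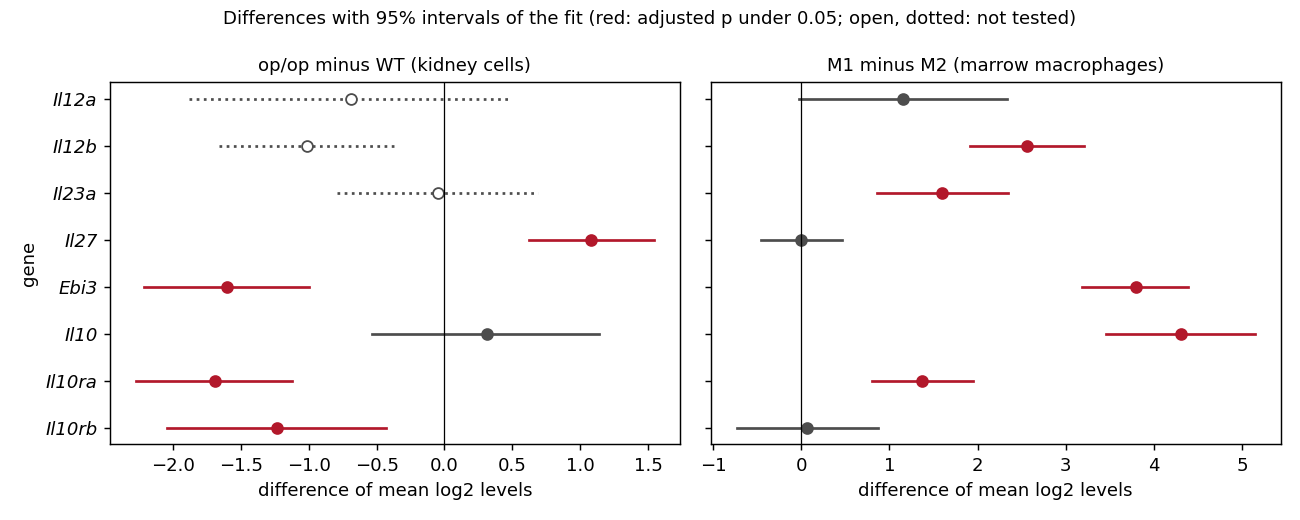
Difference of mean log2 levels with its 95% interval from the limma fit for each of the 8 genes, op/op minus WT on the left and M1 minus M2 on the right; red marks an adjusted p under 0.05, grey a test that was not called, and open points with dotted lines genes too dim to be tested. In the left panel Il27 alone lies to the right of 0 among the called genes, and in the right panel all 5 called genes do, up to 4.30 for Il10.

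Across M1 and M2 all 8 genes were tested and 5 were called, all of them higher in M1 (Il12b, Il23a, Ebi3, Il10 and Il10ra). Of these, Il12b and Il23a were tested only because all M1 arrays measured them and no M2 array did, so their direction was set by the filter, and Il12a entered in the same way. Il10 also passed the filter only through M1, since 2 of 3 M2 arrays measured it, and the filter on all 12 arrays drops it. With a filter on all 12 arrays 4 of the genes were tested and 2 called. Among all 26174 genes tested, 17.8% were called, 8.86% higher and 8.92% lower, and the median difference was 0.00. Il12b, Il23a, Ebi3 and Il10 are textbook targets of LPS, which was part of the M1 stimulus. The stimuli also differed in GM-CSF, IL-4 and M-CSF, and the part of LPS in these calls was not tested. T cell, B cell, NK cell and mast cell marker lists had no called gene in this comparison, but the other marker lists did. Of 6 tested dendritic cell markers, 1 was called higher in M1 and 3 lower (median -1.32). Of 10 macrophage and monocyte markers, 3 were called higher and 1 lower, and of 8 neutrophil markers, 1 higher and 3 lower. The tubule and endothelial lists had called genes too.

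The kidney groups were next set beside the marrow controls; these comparisons share arrays with each other and with those above. In WT against M1, 4 of 8 genes were called, 1 higher and 3 lower, where 59.4% of all genes were (33.9% higher and 25.6% lower). In WT against M2, 4 of 5 tested were called, 3 higher and 1 lower, where 64.6% of all genes were (36.6% higher and 28% lower). In op/op against M1, 7 of 8 were called, 1 higher and 6 lower, where 81.7% of all genes were (46.2% higher and 35.5% lower). Of the lower genes, Il12a and Il12b were tested only through the M1 arrays, as no op/op array measured them. The direction of both was therefore set by the filter. With a filter on all 12 arrays 4 genes were tested and 4 called, 1 higher and 3 lower. In op/op against M2, 4 of 5 tested were called, 2 higher and 2 lower, where 83.5% of all genes were (47.1% higher and 36.4% lower). Il10, called higher in both comparisons with M2, passed the filter only through the kidney arrays, since 2 of 3 M2 arrays measured it. These shares lie near the background or rest on few genes. The median difference of all genes was 0.20 for WT and 0.38 for op/op against either marrow group.

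By the order of the group means, M1 was highest in 6 of the genes. Il12b ran in the order M1, WT, op/op, M2, and so did Il23a. For Il12b the step from WT to M1, -0.73 ± 0.30 (SE) as WT minus M1, was not called (adjusted p = 0.0519, limma), and the steps below were not tested. For Il23a M1 and WT differed by -0.10 ± 0.34 (WT minus M1, adjusted p = 0.818, limma). Il12a ran M1, M2, WT, op/op, with no neighbouring pair called or, for the lower ones, tested.

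Il27 ran op/op, WT, M1, M2, with each kidney group above both marrow groups. WT exceeded M1 by 1.18 ± 0.21 (SE, adjusted p = 0.00055, limma), and op/op exceeded M1 by 2.26 ± 0.21 (adjusted p = 1.91e-06). Ebi3 ran M1, WT, M2, op/op: WT and M2 did not differ detectably (0.06 ± 0.28, adjusted p = 0.849), WT minus M1 was -3.72 ± 0.28 (adjusted p = 1.18e-06) and op/op minus M2 was -1.54 ± 0.28 (adjusted p = 0.00027). On this gene the op/op cells were below every other group, 40-fold below M1.

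Il10 ran M1, op/op, WT, M2. Both kidney groups lay between the marrow groups, with op/op minus M1 at -2.03 ± 0.38 (SE, adjusted p = 0.000409, limma) and WT minus M2 at 1.96 ± 0.38 (adjusted p = 0.000967). Il10ra ran WT, M1, op/op, M2. WT and M1 did not differ detectably (0.34 ± 0.26, adjusted p = 0.279), nor did op/op and M2 (0.02 ± 0.26, adjusted p = 0.94), and the step between, op/op minus M1, was -1.35 ± 0.26 (adjusted p = 0.000526). Il10rb ran M1, M2, WT, op/op, with WT minus M2 at -1.82 ± 0.37 (adjusted p = 0.00117) and op/op minus M2 at -3.05 ± 0.37 (adjusted p = 1.16e-05).

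The genes most like each member over the 12 arrays are given as a description; the arrays share their groups, so any gene that separates the groups alike scores high. Il12b was followed most closely by Ier3 (r = 0.972), an immediate early response gene, and then by Pla2g7 (0.971) and Klf6 (0.968). Ebi3 was followed by Rnf213 (0.997), Rtp4 (0.995) and Parp14 (0.995), which are known interferon-induced genes, and Il10 by Ifi47 (0.977), Tgtp1 (0.961) and Peli1 (0.959), of which Ifi47 and Tgtp1 encode interferon-inducible GTPases. Rnf213 stood at 0.65 ± 0.25 in op/op, 2.21 ± 0.43 in WT, 5.86 ± 0.17 in M1 and 2.12 ± 0.15 in M2 (SD, n = 3 each), the same order of groups as Ebi3.

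Il10ra was most like Tgfbi (r = 0.988), an extracellular matrix protein made by macrophages, which stood at 2.21 ± 0.27 in op/op, 4.39 ± 0.83 in WT, 4.13 ± 0.26 in M1 and 2.29 ± 0.22 in M2 (SD, n = 3 each). Tmem119 (0.976), known as a marker of microglia, and Coq10b (0.966) came next. Il10rb was most like the mitochondrial genes Mrpl9 (0.996) and Pmpca (0.994), with Mindy3 (0.994) beside them. After Olfr544, Il27 was most like Hipk4 (0.994) and Ccdc88c (0.993). The dim genes had lower values, with Il23a nearest to Gzmb (0.914), Rd3 (0.890) and Bco2 (0.883), and Il12a to Yrdc (0.892), Ikzf1 (0.888) and Ikzf4 (0.886).

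Promoters, the 250 bases before the start, were in the RefSeq table (GRCm38.p6) for 3 of the 8 genes. Those of Il12b and Ebi3 are shown because both genes were called higher in M1 and stood lower in op/op than in WT. For Il12b the op/op difference was not tested, as no op/op array measured it, and its direction in M1 was set by the filter. Capitals mark the letters found for PU.1 (GAGGAA), a macrophage lineage factor, and NF-kB (GGGNNTTCC), searched on both strands.
Il12b, chr11:44399813-44400062, plus strand: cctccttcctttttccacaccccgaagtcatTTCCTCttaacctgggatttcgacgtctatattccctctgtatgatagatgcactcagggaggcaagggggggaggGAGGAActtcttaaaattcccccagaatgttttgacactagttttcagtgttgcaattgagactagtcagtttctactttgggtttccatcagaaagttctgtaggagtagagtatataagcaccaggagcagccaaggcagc
Ebi3, chr17:55952373-55952622, plus strand: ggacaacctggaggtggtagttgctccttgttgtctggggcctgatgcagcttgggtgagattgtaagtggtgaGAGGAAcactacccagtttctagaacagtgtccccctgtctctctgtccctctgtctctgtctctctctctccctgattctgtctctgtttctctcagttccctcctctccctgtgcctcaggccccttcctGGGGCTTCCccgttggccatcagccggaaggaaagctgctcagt
The Ebi3 window held the NF-kB letters from 44 bases before the start, which 5.0% of 32851 such promoters hold, and the PU.1 letters from 176 bases before it. The Il12b window held the PU.1 letters from 143 bases before the start and, on the other strand, from 219 bases before it; 23.3% of promoters hold them. The letters searched for ISRE (GAAANNGAA, in 7.1% of promoters), C/EBP (TTGCNNAA, 9.6%) and AP-1 (TGANTCA, 6.7%) were in neither window. A match is a description of letters and not a site.

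Other genes of these pathways were read from lists that had been written with earlier results of these data known. In op/op against WT, 2 of 4 tested receptor chains of the IL-12 family were called higher and none lower (median 0.61, beside 0.16 for all genes). Of all genes tested, 30.9% were called higher and 28.5% lower. Il27ra, the IL-27 receptor chain, stood at -1.35 ± 0.51 in op/op and -3.53 ± 0.39 in WT (SD, n = 3 each), a difference of 2.18 ± 0.51 (SE, adjusted p = 0.00508, limma). Il12rb2, a chain of the IL-12 receptor of lymphocytes, was called at 0.86 ± 0.20 (adjusted p = 0.00526), but another of its probes gave -0.04. Il12rb1 (0.35, adjusted p = 0.107) and Il6st (-0.53, adjusted p = 0.212) were not called, and another Il12rb1 probe gave -1.57.

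The mediators of these receptors were split. Of 6 tested JAK-STAT genes, 1 was called higher and 2 lower in op/op (median 0.11), where 30.9% of all genes were higher and 28.5% lower. Stat3, the main transducer of the IL-10 signal, fell by 0.83 on the log2 scale (adjusted p = 0.00369, limma). Stat4, the transducer of IL-12, was at background in all op/op cells and was at least 1.46-fold lower (adjusted p = 0.01). It was tested only through the WT arrays, so its direction was set by the filter. Tyk2 differed by 0.51 and was not called.

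All 12 called genes among 14 transcription factors known to act on Il12b, Il12a, Il27 or Il10 were lower in op/op (median -1.23). Among all genes tested, 28.5% were called lower and 30.9% higher. The transcription factors called lower included those named next. These were Cebpb (-1.97 ± 0.14, adjusted p = 6.29e-05), Nfkb1 (-1.32 ± 0.19, adjusted p = 0.000705, another probe -0.45), Nfil3 (-2.03 ± 0.30, adjusted p = 0.000788) and Irf1 (-1.15 ± 0.17, adjusted p = 0.000873, another probe -0.60, limma, SE). Cebpb, a bZIP factor, stood at 3.09 ± 0.11 in op/op and 5.06 ± 0.10 in WT (SD, n = 3 each), the smallest spread of the 4. Of 8 tested genes that IL-10 is known to induce in macrophages, 6 were called lower and 1 higher (median -1.11), among them Hmox1, the heme oxygenase (-2.34 ± 0.25, adjusted p = 0.000379), Sbno2 (-1.07 ± 0.15, adjusted p = 0.000589), Nfil3 and Bcl3 (-1.14 ± 0.19, adjusted p = 0.00125). Nfil3 and Bcl3 stand in both lists. The gene called higher was Il4ra (0.83), of which another probe gave -0.06. These falls stood beside the lower macrophage markers given above, and the part of those cells was not tested.

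Genes of the IL-10 family other than the members went the other way. Of 7 tested ligands and receptors, 6 were called higher in op/op and none lower (median 0.94), where 30.9% of all genes were called higher. Examples are Il24 (0.94 ± 0.15, adjusted p = 0.00106), Il22ra1 (1.10 ± 0.25, adjusted p = 0.0047, another probe 0.38), Il20rb (0.82 ± 0.21, adjusted p = 0.00725) and Il20 (1.17 ± 0.37, adjusted p = 0.0196, limma, SE). Of 5 tested type 1 and type 17 genes of lymphocytes, 3 were called higher (median 0.60), namely Tbx21, the master factor of type 1 cells (0.71 ± 0.20, adjusted p = 0.0119), Il17f (1.06 ± 0.31, adjusted p = 0.0139) and Il22 (0.60 ± 0.20, adjusted p = 0.0249), which is also in the IL-10 family list. These values stood beside the higher T cell markers given above, and beside the median of 0.78 for olfactory receptor genes.

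In M1 against M2, signalling genes were called too. Of 6 tested JAK-STAT genes, 4 were called higher in M1 and none lower (median 1.20, beside 0.00 for all genes), among them Stat3 (1.44 ± 0.18, adjusted p = 0.000163), Jak2 (0.97 ± 0.16, adjusted p = 0.00108) and Stat4 (at least 1.44-fold, adjusted p = 0.0052, limma). Stat4 was well above background on no M2 array, so it was tested only through M1 and the filter set its direction. Of all genes tested, 8.86% were called higher and 8.92% lower. Among 4 tested receptor chains, Il23r, the chain specific to the IL-23 receptor, was at least 3.38-fold higher in M1 (adjusted p = 1.85e-07) and at background in the 3 other groups. The direction of Il23r was likewise set by the filter. Il6st, a chain of the IL-27 receptor, was lower in M1 (-2.08 ± 0.36, adjusted p = 0.00152), and Il12rb1 and Il12rb2 were not called.

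Of 9 tested IL-10 response genes, 3 were called higher and 1 lower in M1 (median 0.45), where 8.86% of all genes were higher and 8.92% lower. Socs3, an inhibitor of cytokine signalling, stood at 3.34 ± 0.10 in M1 and -1.72 ± 0.17 in M2 (SD, n = 3 each), a difference of 5.07 ± 0.22 (SE, adjusted p = 4e-08, limma), and Il1rn, the IL-1 receptor antagonist, differed by 5.57 ± 0.41 (adjusted p = 2.1e-06). Of 14 transcription factors, 6 were called higher and 1 lower (median 0.60), with Bcl3 (1.80 ± 0.19, adjusted p = 4.36e-05) and Nfkb1 (1.11 ± 0.19, adjusted p = 0.0015) first, then Irf1 (0.88 ± 0.17, adjusted p = 0.0042, another probe 0.22) and Rela (0.73 ± 0.15, adjusted p = 0.00459). The gene called lower among the IL-10 response genes was Etv3 (-1.42 ± 0.34, adjusted p = 0.0117).

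Of 8 tested other IL-10 family genes, 2 were called higher in M1 (median -0.07), where 8.86% of all genes were. Il19 was at least 4.26-fold higher (adjusted p = 0.00586, limma), and Il20ra differed by 1.25 ± 0.39 (adjusted p = 0.0452), while Il20 and Il22ra1 were not called. Of 4 tested lymphocyte genes, Ifng was called, at least 5.61-fold higher in M1 (adjusted p = 6e-04), and Il17f, Il22 and Tbx21 were not (median 0.08). No M2 array measured Il19 or Ifng, so both were tested only through M1 and the filter set their direction.

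**Figure D4:**
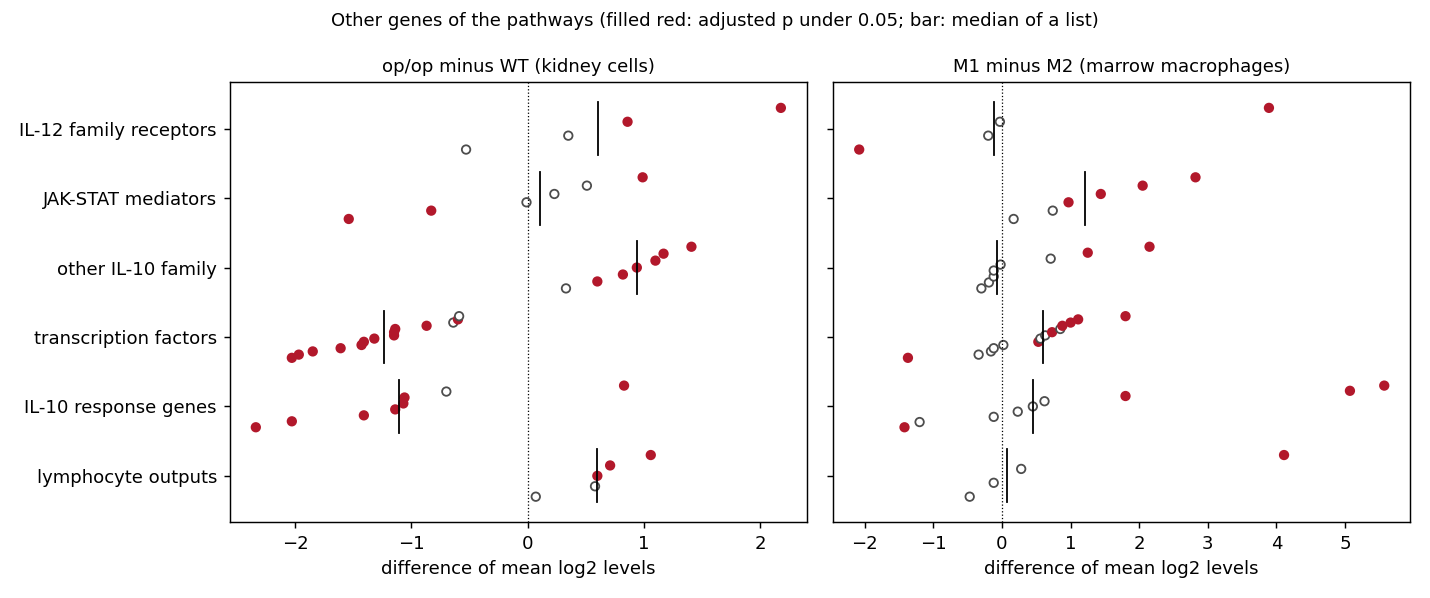
Difference of mean log2 levels for each tested gene of 6 pathway lists, op/op minus WT on the left and M1 minus M2 on the right, with 1 point a gene and a bar at the median of the list; filled red points had an adjusted p under 0.05. The transcription factors and IL-10 response genes lie mostly below 0 on the left (medians -1.23 and -1.11) and the JAK-STAT mediators mostly above 0 on the right (median 1.20).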

How the data were processed

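Per the labels' protocols, RNA (RNeasy Micro) was amplified by Ovation PicoSL and labelled with Cy3. The authors' scanner files hold spot intensity values, background subtracted by Agilent Feature Extraction 10.7.3.1 per the file headers. The authors' deposited value table holds log2 values whose columns correlated at 1.0000 with the levels used here (largest gap 0.0058), with medians of -1.87 to -2.46; it was an alternative.

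Spots of a probe were averaged on the log2 scale and scaled by the array's 75th percentile. Of 55681 probes, 30 with an unusable probe value on an array were left out, and 42938 were kept, each well above background in all arrays of 1 group or more. Names came from the transcript accession (27509 probes), symbol (3549) or synonym (404) in RefSeq, or from the file (24219). The brightest probe stood for a gene. The model (limma 3.58.1, R 4.3.3) had no covariates, with Benjamini-Hochberg adjustment. A fold against a group with no array well above background is a lower bound, against the dimmest well-measured probe of each array. The fit was tested on simulated data. Tables were made with Python 3.11.15.

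All 8 members were named, with up to 4 genes a pathway list by smallest p and the 3 genes most like each member by Pearson r; some genes that this rule names are not reported here. Members, lists and markers were chosen with earlier results of these data known. Alternatives were background correction, normalization, filter, floor, probe choice, model, slide and replicate terms, the deposited values, and leaving out each array; the rule that 1 spot is enough was chosen after seeing the data.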

Additional observations from a re-analysis of the deposited data

How the results depend on the processing

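Il27, Ebi3 and Il10ra kept their calls in op/op against WT under all 22 alternatives, with differences of 0.93 to 1.31, -1.96 to -1.23 and -2.02 to -1.48. The alternatives are not all separate checks, since slide as a term gave the same values as leaving out WT replicate 1. With only the 2 groups compared, their adjusted p-values were 0.0307, 0.0217 and 0.0187 (limma). Il10 was called under none of 21 (-0.30 to 0.69). Il10rb lost its call under 4, of which the fit on only the 2 groups compared gave an adjusted p of 0.0548. In M1 against M2, Ebi3, Il10 and Il10ra kept their calls under all alternatives run (3.64 to 3.88, 3.11 to 4.56 and 1.23 to 1.49), and Il12a gained one with array weights (1.41, adjusted p = 0.0178). For op/op against M1, normexp background correction turned Il12b (-1.74 as reported) to 0.058 and Il23a (-0.15) to 0.63 (adjusted p = 0.00133); the cause was not tested, and no op/op array measured either gene. Fitting only the 2 groups compared called 9398 genes in op/op against WT, in place of 16082, and 9365 in M1 against M2, in place of 4656. M1 against M2 had 10361 called with array weights and 6986 calls with every probe on its own. The members called in M1 against M2 were 2 with a filter on all 12 arrays, which leaves fewer genes to test, and 3 with the floor, in place of 5. In op/op against M1 that filter gave 4 in place of 7, and in WT against M1 quantile normalization gave 7 in place of 4.

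Leaving out 1 array at a time gave 11698 to 17423 genes and 3 to 4 members called in op/op against WT, and 3270 to 3420 genes and 5 members in M1 against M2. It gave 14031 to 18305 genes and 4 to 6 members in WT against M1, 15232 to 18945 genes and 4 members in WT against M2, 21000 to 21810 genes and 7 members in op/op against M1, and 20598 to 21169 genes and 4 members in op/op against M2. Same-numbered arrays did not deviate together (correlations -0.165, 0.071 and -0.063 in the kidney, -0.072, 0.144 and 0.084 in the marrow). With replicate number as a block, op/op against WT had 14433 genes called and M1 against M2 had 3623, and 4 and 5 members. Signal over background limits Il12a, Il12b and Il23a on op/op and M2 arrays.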
